A study of Mus musculus with 12 samples.

Results

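Labelled cells of the gut's own nervous system, sorted into CD49b+ and CD49b- fractions from undisturbed adult mice, were compared across the transcriptome. The plates were chosen by their labels, as all homeostasis plates of either gate, and the wells by cut-offs on depth and quality: every well with at least 1000 UMIs (unique molecular identifiers, which tag single captured transcript molecules), at least 500 detected genes and under 20% of its UMIs from mitochondrially encoded genes. This kept 485 of the 576 homeostasis wells, out of 964 retained wells among 1150 in the whole series. They were spread over 6 of the 12 plates. The CD49b- plates kept 93, 78 and 91 wells, 262 in all, and the CD49b+ plates 81, 70 and 72, 223 in all.

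All mice were C57BL/6 and carried a tdTomato reporter that the labels tie to Dclk1, which encodes a microtubule-associated kinase related to doublecortin. They received 3 mg tamoxifen at 8 weeks of age (pools 1 and 3) or 9 weeks (pool 2), were not irradiated, and gave tissue 10 days later. The longitudinal muscle with its attached myenteric plexus was dissociated, and Dclk1-tdTom+ cells were sorted 1 per well into 96-well plates. The submitters describe CD49b- cells as neuronal and CD49b+ cells as glial. Each pool joined 2 mice and filled 1 plate per gate, so that 6 mice in 3 pools stood behind both gates. A plate holds the mixed cells of 2 animals, and only cells with the Dclk1 label were sampled in either gate. CD49b is the surface integrin alpha 2 chain, encoded by Itga2.

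The myenteric plexus lies between the muscle layers of the gut and drives its movements. Its neurons release acetylcholine, nitric oxide and peptides from synaptic and dense-core vesicles, and its glia wrap the ganglia, buffer ions and transmitters and can present antigen. Both descend from the neural crest and share part of their surface proteins and transcription factors. In laboratory practice CD49b antibody staining is used to enrich enteric glia.

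The labelled identities were checked first in single wells. Of 10 neuron markers (among them Elavl4, Tubb3, Snap25, Stmn2, Prph and Ret) and 10 glia markers (among them S100b, Sox10, Gfap and Apoe), all 223 CD49b+ wells held more glia than neuron marker UMIs, and 165 of them held no neuron marker UMI. Among the CD49b- wells 260 lay on the neuron side and 2 on the glia side, and 147 held no glia marker UMI. The neuron markers summed to 8372 to 8800 UMIs per 1000000 UMIs of a plate (CPM, TMM-normalised over the tested genes) on CD49b- plates and 157 to 209 CPM on CD49b+ plates. The glia markers summed to 72.9 to 274 CPM and 34228 to 37929 CPM. Ret had no UMI on the CD49b+ plates and Gfap none on the CD49b- plates, while the neuron marker Uchl1 had none in either gate. The same 96 well barcodes were used on all 6 plates, which is the plate layout.

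**Figure D1:**
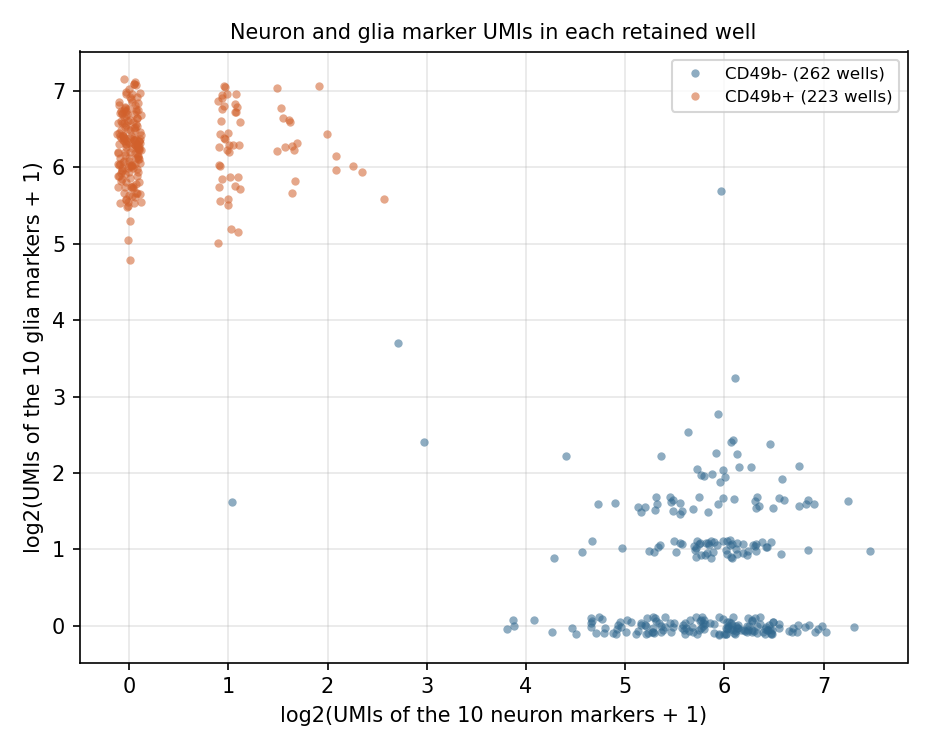
Summed UMIs of the 10 neuron markers (x axis) and 10 glia markers (y axis) in each of the 485 retained wells, as log2(UMIs + 1) with slight random shifts so that points can be told apart. The 223 CD49b+ wells sit at the upper left and most of the 262 CD49b- wells at the lower right. The exceptions include the 4 CD49b- wells between 20% and 80% glia share, of which 2 were on the glia side.

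The 4 CD49b- wells with mixed markers, including the 2 on the glia side, were all on the pool 3 plate. They held 2359 to 13587 UMIs each, and glia markers made up 36.4% to 66.7% of their marker UMIs. They carried 43.3% of the Apoe UMIs of that plate, 93.8% of its C4b UMIs and 94.2% of its Dcn UMIs, Dcn being a matrix proteoglycan of fibroblasts. These wells were not all simple mixtures of neuron and glia markers: 2 of them held 87 and 154 UMIs of the fibroblast markers, and the well with 87 held only 1 neuron and 2 glia marker UMIs. Leaving out the 4 wells is an alternative that was chosen after seeing the data. Its values for Apoe, Col3a1 and C4b stand beside those genes below. It gave log2 fold changes of 9.29 for Sdc4 (76.9% of whose UMIs on that plate lay in these wells), 7.53 for Gsta4 (72.7%) and 8.24 for Fxyd1 (48.6%). It also moved the fitted fold changes of Col12a1 (to 9.17), Sfrp1 (7.98), H2-Q7 (7.43), Isg15 (7.27), H2-Q6 (7.13), Hk2 (6.83), Hspa1b (6.75) and Gbp2 (6.36) upward by over 1.5-fold. These values rest on few CD49b- UMIs.

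Markers of other cells were scarce. On CD49b+ plates 6 of 7 macrophage markers had no UMI (Ptprc, Csf1r, Adgre1, C1qa, Cx3cr1 and Tyrobp), and the 7 together summed to 0 to 6.55 CPM, against 17.0 to 43.0 CPM on CD49b- plates. Smooth muscle markers summed to 64.1 to 118 CPM on CD49b+ plates, with Myh11 at 0, and to 3.39 to 10.4 CPM on CD49b- plates, with Des, Cnn1 and Tagln at 0. Fibroblast markers summed to 6.16 to 59.0 CPM on CD49b+ plates and 0 to 377 CPM on CD49b- plates, with Pdgfra at 0 in both gates, and 241 of their 255 UMIs on CD49b- plates lay in the 4 mixed wells. Endothelial markers summed to 23.3 to 67.7 CPM and 4.45 to 8.91 CPM, and pericyte markers to 29.2 to 91.7 CPM and 13.6 to 28.2 CPM. The mast cell and erythroid markers had no UMI in either gate.

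The genes behind the sort were measured next. Dclk1 stood at 151, 144 and 159 CPM in pools 1, 2 and 3 on CD49b- plates and at 72.1, 98.5 and 93.3 CPM on CD49b+ plates. Every CD49b- plate was above every CD49b+ plate, and the log2 fold change (CD49b+ minus CD49b-, on which sign all fold changes below are given) was -0.78 ± 0.312 (SE; edgeR, adjusted p = 0.0275). The call did not hold without pool 1 (-0.72, adjusted p = 0.102), without pool 3 (-0.84, adjusted p = 0.0714), with stricter wells or in DESeq2. Dclk1 spans chr3:55242364-55539068 on the plus strand of GRCm38 in the GENCODE vM21 annotation. Itga2, which encodes CD49b, was too sparse to be tested: the CD49b+ plates held 11 UMIs in 8 of 223 wells (19.7, 43.1 and 5.83 CPM) and the CD49b- plates none in 262 wells, which allows a share of wells with a UMI of up to 1.15%, for counting error only.

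Depth differed strongly between the gates. The plate medians of UMIs per retained well were 6338, 8335 and 8096 for CD49b- and 2110, 2546 and 2680 for CD49b+. The means were 7590 ± 1091 (SD, n = 3) and 2445 ± 298, a ratio of 3.10 with no overlap (two-sided exact permutation p = 0.1, the smallest that 3 plates against 3 allow). CD49b- wells held a median of 3298 ± 282 genes and CD49b+ wells 1484 ± 171 (exact p = 0.1). After each well was thinned at random to 1000 UMIs the medians were 759 ± 5.58 and 727 ± 13.1 genes (exact p = 0.1). The mitochondrial share of UMIs was 1.74% ± 0.112 and 1.95% ± 0.280 (exact p = 0.3). Retained UMIs per plate came to 610743 to 746674 for CD49b- and 174244 to 190123 for CD49b+, so that CD49b+ levels were the less precise ones.

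UMIs were summed per plate, and the gates were compared with pools as blocks in 7051 genes. The test called 3677 genes (52.1% of those tested) at an adjusted p below 0.05: 1807 higher in CD49b+ cells (25.6%) and 1870 lower (26.5%). The median log2 fold change was -0.11 over all tested genes, and the median size among called genes was 1.80. At least 4-fold differences were reached by 810 of the higher and 798 of the lower genes, and 1939 genes passed a test against a 2-fold change. DESeq2 called 2453 genes, 1226 higher and 1227 lower, and edgeR without a filter on low counts 1592 higher and 2904 lower. The gates did not overlap over the 3 plates each in 4254 genes (60.3%), among them 3480 of the called ones. Plates of 1 gate resembled each other closely, with Pearson correlations across genes of 0.952 to 0.961 among CD49b- plates and 0.841 to 0.863 among CD49b+ plates, against 0.289 to 0.340 between gates. Genes are not independent replicates.

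These calls compare shares of each plate's UMIs. Scaled instead to the number of retained wells, a scale added after seeing the depth gap, 505 genes were higher and 5191 lower in CD49b+ cells, with a median log2 fold change of -1.77. All 1870 lower genes were lower on this scale too. Of the 1807 higher genes 505 remained higher, 1055 did not pass and 247 were lower. Captured UMIs per well reflect both the RNA content of a cell and how much of it was captured, and these data hold no spike-in measure that would tell these apart. Below, a gene described as higher in CPM is followed by its log2 fold change per well where that changes the call.

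**Figure D2:**
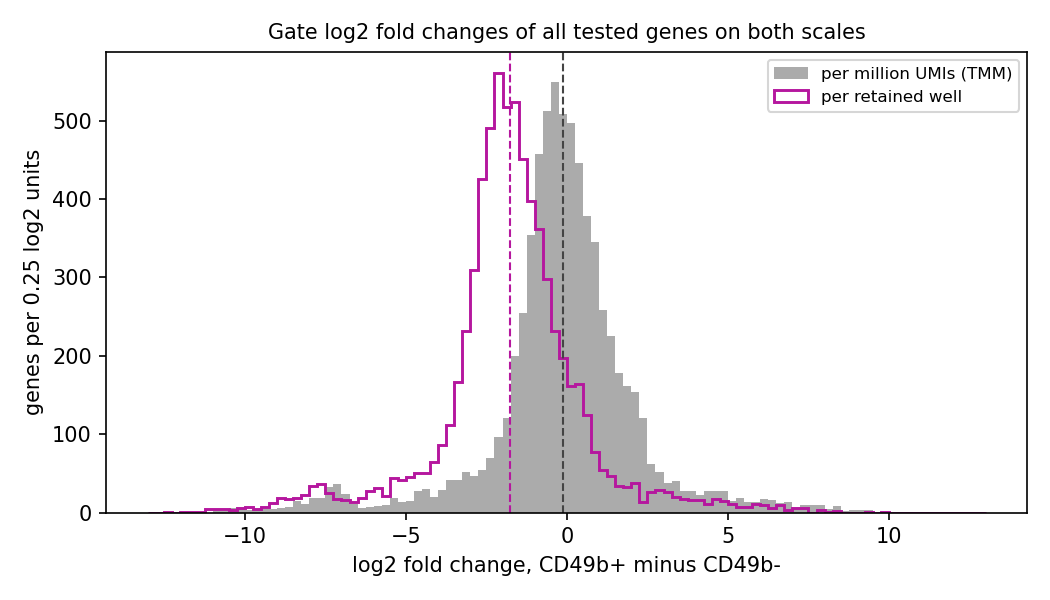
Number of genes (y axis) by log2 fold change, CD49b+ minus CD49b-, in steps of 0.25 (x axis), for the 7051 tested genes. The filled histogram is scaled in CPM (median -0.11, dashed) and the outline per retained well (median -1.77, dashed), so the whole distribution lies lower on the per-well scale.

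Genes of neurons were lower in CD49b+ cells nearly throughout. Counts of list members below cover those with enough UMIs to be tested, and a gene could pass that filter by being high in 1 gate alone, so they describe the tested members and not whole lists. The background for each count is the share over all tested genes, 25.6% higher and 26.5% lower. All 16 tested of 20 listed pan-neuronal genes were called lower, with a median log2 fold change of -6.51 (-5.58 with genes absent from 1 gate set to their bound) against -0.11 over all genes. Stmn2, a tubulin-binding protein of growing axons, stood at 1405, 1924 and 1763 CPM on CD49b- plates and at 0, 6.16 and 5.83 CPM on CD49b+ plates, with 2 UMIs in all there. The ratio was 415 with a counting interval of 115 to 3427. Snap25, a SNARE protein of vesicle fusion named here after its values were seen, stood at 1892, 1666 and 1792 CPM and at 6.55, 12.3 and 11.7 CPM (log2 fold change -7.39 ± 0.348, adjusted p = 2.9e-51). For both genes every CD49b- plate lay far above every CD49b+ plate. Stmn2 lies at chr3:8509360-8561606 on the plus strand.

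Of 28 tested synaptic vesicle genes 26 were lower and 1 was higher, with a median of -4.50. Syn2, which tethers vesicles, stood at 390, 383 and 427 CPM on CD49b- plates and had no UMI on CD49b+ plates, and was at least 21.6-fold higher in CD49b- cells against a floor of 3 counts per plate. Rab3b, a vesicle-bound GTPase, was at least 18.1-fold higher. The exception was Syngr1, synaptogyrin, a vesicle membrane protein, at 126, 143 and 157 CPM on CD49b- plates and 321, 468 and 327 CPM on CD49b+ plates (log2 fold change 1.37 ± 0.226, adjusted p = 4.33e-08). Per retained well its log2 fold change was -0.30.

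Among transmitter enzymes and transporters 6 of 7 tested genes were lower and 1 was higher (median -7.02, or -4.34 with absent genes at their bound). Of the cholinergic genes, Slc18a3, Ache and Chat had no UMI on the CD49b+ plates. Slc5a7, the choline transporter, had few there, at 0.00952 UMIs per retained well against 0.727 on CD49b- plates. Slc18a3, the vesicular acetylcholine transporter, stood at 404, 355 and 368 CPM in CD49b- cells and was at least 20.3-fold higher there. Ache, which breaks acetylcholine down, was at least 13.8-fold higher, and Chat, which makes it, at 51.7, 45.8 and 37.1 CPM, at least 2.42-fold. Nos1, the neuronal nitric oxide synthase, stood at 723, 1232 and 899 CPM in CD49b- cells and at 0, 18.5 and 5.83 CPM in CD49b+ cells (log2 fold change -6.82).

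The exception among the transmitter genes was Slc18a2, which loads monoamines into vesicles. It stood at 33.8, 64.5 and 35.6 CPM on CD49b- plates and at 203, 265 and 175 CPM on CD49b+ plates, higher in every pool (log2 fold change 2.28 ± 0.318, adjusted p = 1.5e-10). On thinned wells 15.8% ± 3.62 (SD, n = 3) of CD49b+ and 2.72% ± 1.44 of CD49b- wells held an Slc18a2 UMI. Unthinned shares, which are subject to the 3.10-fold depth gap, were 36.2% and 25.1%. Per retained well the difference did not pass (log2 fold change 0.61, adjusted p = 0.0764).

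Neuropeptide genes were lower in 6 of 6 tested cases (median -7.42). Gal, which encodes galanin, stood at 7367, 15954 and 13904 CPM on CD49b- plates and at 26.2, 12.3 and 70.0 CPM on CD49b+ plates (log2 fold change -8.39). Tac1, the substance P precursor gene, stood at 1660, 1054 and 1769 CPM and at 32.8, 0 and 0 CPM. Npy, added after its values were seen, was lower by less: 834, 1525 and 1057 CPM on CD49b- plates and 138, 203 and 222 CPM on CD49b+ plates (log2 fold change -2.58 ± 0.219, adjusted p = 2.72e-23). Npy UMIs were found in 15.0% ± 7.52 of thinned CD49b+ wells and 30.4% ± 3.68 of thinned CD49b- wells (27.7% and 66.0% unthinned).

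Granins and the enzymes that mature peptides in dense-core vesicles were lower in 12 of 14 tested genes and higher in 2 (median -6.52, or -3.42 with absent genes at their bound). Chgb, a granin that fills dense-core vesicles, stood at 789, 502 and 679 CPM on CD49b- plates and had no UMI on CD49b+ plates, and was at least 35.4-fold higher in CD49b- cells. Resp18, a neuroendocrine protein of the secretory path, stood at 3420, 3140 and 3493 CPM and at 0, 6.16 and 0 CPM, the latter from 1 UMI, a ratio of 1633 with a counting interval of 293 to 64513. Ptprn, a receptor-type phosphatase of the vesicle membrane, was at least 25.5-fold higher in CD49b- cells and Vgf at least 5.09-fold.

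The enzymes did not all go that way. Cpe, the carboxypeptidase that trims peptide hormones, stood at 962, 758 and 805 CPM on CD49b- plates and at 3446, 2827 and 2950 CPM on CD49b+ plates (log2 fold change 1.87 ± 0.185, adjusted p = 1.92e-18). The thinned wells held a Cpe UMI in 91.8% ± 4.96 of CD49b+ and 56.1% ± 1.02 of CD49b- cases. Per retained well the log2 fold change of Cpe was 0.20 (adjusted p = 0.289). Scg3, a granin-binding protein, stood at 422, 333 and 396 CPM and at 629, 554 and 525 CPM (log2 fold change 0.57 ± 0.193, adjusted p = 0.00824), and per retained well it was lower, at -1.10. The call of Scg3 did not hold without pool 2, without a filter on low counts or in DESeq2.

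The promoters of these secretory genes are shown because 3 of the 12 granin-list genes with a promoter entry hold the cyclic AMP response element, the palindrome TGACGTCA, on which CREB-family factors are known to act. The RefSeq windows (250 bases before to 50 after each start, GRCm38.p6) were searched on both strands for these exact letters; 4514 of the 7051 tested genes matched the table. The element stood in 5.40% of the lower genes (72 of 1334), 2.74% of the higher genes (24 of 877), 4.34% of all tested genes and 2.03% of all 27025 promoters. It is not particular to the secretory genes. Immediate early genes, a list that was mostly higher in CD49b+ cells, held it in 4 of 24 cases (Dusp1, Btg2, Maff and Ppp1r15a). Among synaptic vesicle genes it stood in 1 of 21, and among neuropeptide genes in 1 of 5. The 150 bases before the start follow 5′ to 3′ for Chgb (plus strand, chr2:132781492-132781641), Scg2 (minus strand, chr1:79440027-79440176) and Pcsk1 (plus strand, chr13:75089707-75089856), with the element in capitals. H2-Aa (minus strand, chr17:34287824-34287973), an MHC class II gene that was higher in CD49b+ cells, holds the same letters and is printed for comparison.
Chgb: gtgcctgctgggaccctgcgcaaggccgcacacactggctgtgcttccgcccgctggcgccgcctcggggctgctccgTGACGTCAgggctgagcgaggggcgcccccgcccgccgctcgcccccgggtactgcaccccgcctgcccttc
Scg2: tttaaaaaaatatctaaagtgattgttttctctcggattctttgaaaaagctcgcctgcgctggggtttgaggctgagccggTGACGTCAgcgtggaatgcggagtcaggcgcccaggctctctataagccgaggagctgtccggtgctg
Pcsk1: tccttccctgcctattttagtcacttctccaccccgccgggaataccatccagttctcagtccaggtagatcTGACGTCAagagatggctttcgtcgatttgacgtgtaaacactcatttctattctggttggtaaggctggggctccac
H2-Aa: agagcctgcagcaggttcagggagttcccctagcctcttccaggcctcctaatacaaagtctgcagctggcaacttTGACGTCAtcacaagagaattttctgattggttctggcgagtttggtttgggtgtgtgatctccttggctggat
In all 4 the first letter of the element lies 68 to 78 bases before the annotated start. The match is a description of the letters and does not show a bound factor. Of these genes, Scg2, the secretogranin II gene, stood at 2414, 2236 and 1987 CPM on CD49b- plates and at 19.7, 12.3 and 0 CPM on CD49b+ plates (log2 fold change -7.70 ± 0.349). Pcsk1, a convertase that cuts prohormones, stood at 57.0, 47.5 and 59.3 CPM and had no UMI on CD49b+ plates, at least 2.95-fold. Scg2, Pcsk1 and the comparison with H2-Aa were picked by the letters.

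Receptors for transmitters and peptides were lower in 13 of 16 tested genes and higher in 3 (median -5.55, or -2.66 with absent genes at their bound). Chrna3, the alpha subunit of the ganglionic nicotinic receptor, stood at 363, 433 and 366 CPM on CD49b- plates and had no UMI on CD49b+ plates, at least 20.9-fold. Its partner subunit Chrnb4 was at least 11.9-fold higher in CD49b- cells and the serotonin receptor gene Htr3a at least 19.2-fold. The higher genes were Tacr3, Gria3 and Ramp1. Tacr3, the neurokinin B receptor, stood at 5.34, 5.09 and 4.45 CPM and at 111, 61.6 and 35.0 CPM (log2 fold change 3.64 ± 0.622, adjusted p = 1.22e-07). Ramp1, a subunit of the receptor for calcitonin gene-related peptide, was named after its values were seen, and stood at 447, 395 and 457 CPM and at 1631, 1256 and 1498 CPM (log2 fold change 1.75 ± 0.185, adjusted p = 1.65e-16). Per retained well Ramp1 (0.077, adjusted p = 0.694) and Gria3 (0.53, adjusted p = 0.405) did not pass.

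Of 19 tested channel genes 15 were lower and 3 higher (median -4.74, or -2.12 with absent genes at their bound). Kcnq3, which carries the M-current that limits repeated firing, stood at 92.6, 127 and 94.9 CPM on CD49b- plates and had no UMI on CD49b+ plates, at least 5.66-fold. Kcnj10, the inward rectifier by which glia take up potassium, went the other way: 0, 0 and 2.97 CPM against 157, 86.2 and 99.1 CPM, a ratio of 103 with a counting interval of 27.2 to 873. Scn7a, a sodium-sensing channel, stood at 16, 5.09 and 5.93 CPM and at 242, 382 and 251 CPM (log2 fold change 4.99 ± 0.384). The remaining higher channel was Kcna2 (log2 fold change 3.42).

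Axonal cytoskeleton and transport genes were lower in 25 of 31 tested cases and higher in 3 (median -2.36). Kif5a, a neuronal kinesin, stood at 264, 254 and 209 CPM on CD49b- plates and had no UMI on CD49b+ plates, at least 13.1-fold. Calcium buffers and sensors were lower in 11 of 13 and higher in 2 (median -3.11). Calb2, which encodes calretinin, stood at 1534 ± 314 CPM (SD, n = 3) and at 10.2 ± 3.16 CPM, without overlap (log2 fold change -7.16). Its relative Calb1, calbindin, was higher in CD49b+ cells at 65.5, 61.6 and 70.0 CPM against 32.1, 18.7 and 17.8 CPM (log2 fold change 1.55 ± 0.497, adjusted p = 0.00525), although per retained well its log2 fold change was -0.11, and without pool 3 its call did not hold (1.29, adjusted p = 0.0796).

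Transcription factors of enteric neurons were lower in 10 of 15 tested genes and higher in 3 (median -2.76). Phox2a, an autonomic neuron factor, stood at 126, 115 and 110 CPM on CD49b- plates and had no UMI on CD49b+ plates, at least 6.32-fold. Hand2, a neural crest factor needed for enteric neuron differentiation, was higher in CD49b+ cells, at 288, 314 and 204 CPM against 78.4, 124 and 110 CPM (log2 fold change 1.36 ± 0.256, adjusted p = 1.6e-06), and did not pass per retained well (-0.31, adjusted p = 0.263). Zfhx3 and Tbx3 were the other higher factors, at log2 fold changes of 3.28 and 1.03. Per retained well Tbx3 was lower (-0.64, adjusted p = 0.0174), and without a filter on low counts its call did not hold (0.69, adjusted p = 0.0513).

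The largest differences in favour of CD49b- cells also included genes outside these lists. Bglap, which encodes osteocalcin, stood at 1069, 1013 and 1229 CPM on CD49b- plates and had no UMI on CD49b+ plates, at least 59.5-fold. By 31-base words its sequence is 62.9% shared with other genes, that of Bglap2 95.2% and that of Bglap3 22.5%. Both were lower too, and how the counting divided reads among the copies is uncertain, above all for Bglap2. Actn1, a cross-linker of actin filaments, was at least 32.2-fold higher in CD49b- cells, Ly6c1 at least 28.1-fold (46.8% shared sequence) and Rbp4, a retinol carrier, at least 22.8-fold. In all, 180 of the lower genes had no UMI on any CD49b+ plate and 39 of the higher genes none on any CD49b- plate.

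**Figure D3:**
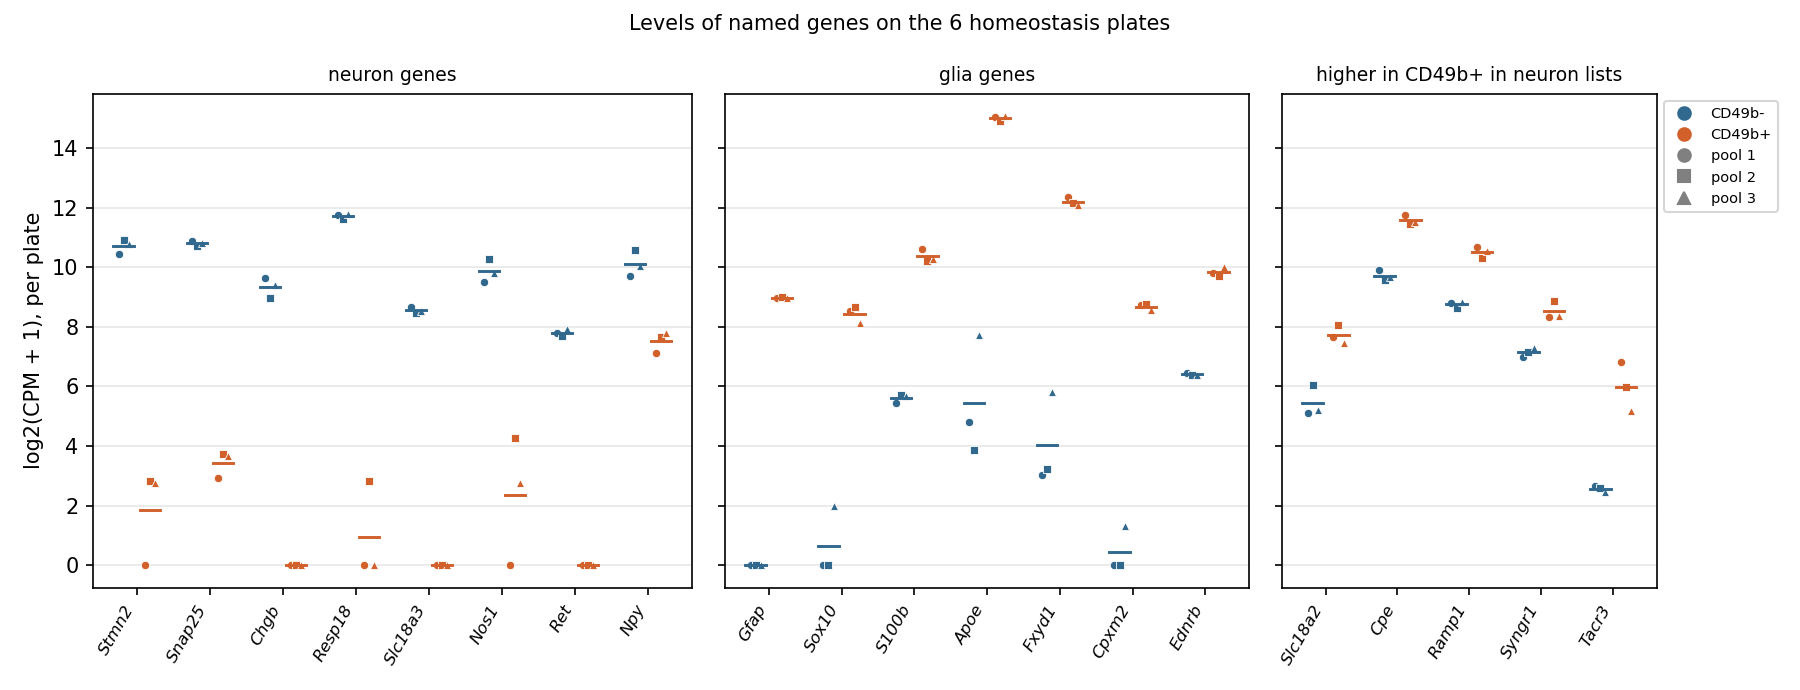
Levels of 20 genes as log2(CPM + 1) on each of the 6 plates (y axis), with marker shapes for the pools, blue for CD49b- and orange for CD49b+; bars are means of 3 plates. The neuron genes in the left panel and the glia genes in the middle panel are each separated without overlap. The right panel shows 5 of the genes of neuron lists that were higher in CPM in CD49b+ cells, and the text names further ones.

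Genes of glia were higher in CD49b+ cells. Of 20 tested among 30 listed enteric glia genes 18 were called higher and none lower, with a median log2 fold change of 6.83, and per retained well 17 were higher and 2 lower. Gfap, the glial intermediate filament, had no UMI on CD49b- plates and stood at 498, 511 and 496 CPM on CD49b+ plates, at least 101-fold (minus strand, chr11:102887336-102900912). S100b, a glial calcium-binding protein, stood at 42.7, 50.9 and 50.4 CPM and at 1559, 1189 and 1236 CPM (log2 fold change 4.76 ± 0.227, adjusted p = 1.81e-50). S100b was named after its values were seen.

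Tmprss5, a membrane serine protease, had no UMI on CD49b- plates and stood at 511, 745 and 822 CPM on CD49b+ plates, at least 140-fold. The exceptions in the list were Ngfr, the low-affinity neurotrophin receptor, and Glul, glutamine synthetase. Ngfr stood at 81.9, 178 and 116 CPM on CD49b- plates and at 138, 55.4 and 122 CPM on CD49b+ plates, which overlapped (log2 fold change -0.21, adjusted p = 0.598). Glul stood at 44.5, 49.2 and 71.2 CPM and at 0, 30.8 and 46.6 CPM (log2 fold change -1.11, adjusted p = 0.0596). Per retained well both were lower (-1.88 and -2.76).

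Glial and neural crest transcription factors were higher in 11 of 13 tested genes and lower in none (median 3.51; 7 higher and 2 lower per retained well). Sox10, the factor that specifies crest-derived glia, stood at 0, 0 and 2.97 CPM on CD49b- plates and at 367, 400 and 280 CPM on CD49b+ plates, a ratio of 317 with a counting interval of 86.4 to 2639. Hes1, a repressor induced by Notch, stood at 10.7, 23.8 and 8.90 CPM and at 1631, 1657 and 1347 CPM (log2 fold change 6.73 ± 0.268, adjusted p = 1.57e-61). Egr2, known for its part in myelination, had no UMI on CD49b- plates and stood at 52.4, 43.1 and 99.1 CPM on CD49b+ plates, at least 13.1-fold. Of 5 tested myelin genes 3 were higher: Gjc3 (at least 17.1-fold), Plekhb1 (log2 fold change 3.43) and Mbp (2.92). Per retained well 3 of this list were higher and 2 lower.

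The transporters and junction proteins split evenly, 4 of 8 tested genes higher and 4 lower. Fxyd1, a regulator of the sodium pump, stood at 7.12, 8.48 and 54.9 CPM on CD49b- plates and at 5293, 4526 and 4367 CPM on CD49b+ plates (log2 fold change 7.65 ± 0.281). The pool 3 value of 54.9 CPM came to 48.6% from the 4 mixed wells. Atp1b2, a beta subunit of the pump, was higher as well (log2 fold change 4.95), while the relative Fxyd6 was lower, at 616, 680 and 617 CPM against 6.55, 18.5 and 52.5 CPM (-4.57). Of the other tested members of this small family, Fxyd3 had no UMI on CD49b- plates and stood at 151, 154 and 157 CPM on CD49b+ plates, while Fxyd7 (442, 394 and 415 CPM against 59.0, 24.6 and 46.6 CPM) and Fxyd5 (112, 278 and 151 CPM against 13.1, 36.9 and 0 CPM) were lower in CD49b+ cells, by log2 fold changes of -3.27 and -3.47.

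Lipid carriers were higher in 10 of 15 tested genes and lower in 3 (median 1.26 in CPM, -0.40 per retained well). Apoe, the main lipid carrier made by glia, stood at 26.7, 13.6 and 209 CPM on CD49b- plates and at 33533, 30588 and 34460 CPM on CD49b+ plates (log2 fold change 9.06 ± 0.334, adjusted p = 2.1e-66; 9.41 without the mixed wells). Every CD49b+ well held an Apoe UMI even after thinning. Apod, a lipid carrier of the lipocalin family, was higher by 6.19 and Dbi, an acyl-CoA-binding protein named after its values were seen, by 4.26. The fatty acid-binding protein gene Fabp3 had no UMI on CD49b+ plates and was at least 6.23-fold higher in CD49b- cells, and Clu, clusterin, was lower by less (-2.03).

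Every tested extracellular matrix gene, 19 of 19, was higher in CD49b+ cells (median 4.37), and per retained well 16 were higher and 1 lower. Col12a1, a fibril-associated collagen, stood at 0, 0 and 7.42 CPM on CD49b- plates and at 799, 918 and 770 CPM on CD49b+ plates (log2 fold change 8.09 ± 0.35). Col18a1, a basement membrane collagen, was higher by 7.35. Postn, periostin, had no UMI on CD49b- plates and varied between pools in CD49b+ cells, at 118, 36.9 and 146 CPM (at least 20.2-fold). Col3a1, a fibrillar collagen, stood at 0, 0 and 63.8 CPM against 170, 209 and 111 CPM (log2 fold change 3.30); 95.3% of its UMIs on the pool 3 CD49b- plate came from the mixed wells, and the log2 fold change was 6.80 without them. Of the 6 fibroblast markers, Dcn, Col1a2, Pi16 and Pdgfra were at 0 on CD49b+ plates, while Lum and Col1a1 held 13 UMIs there in 12 wells.

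Of 27 tested adhesion molecule genes 11 were higher and 8 lower (median 0.08), where 25.6% and 26.5% of all tested genes were; the share that was lower is near that background. Sdc4, a heparan sulfate proteoglycan, and Vcam1, a ligand of leukocyte integrins, were higher by 7.86 and 4.76, and Nrxn2 and Cntn1, surface proteins of axons and presynaptic terminals, were lower: Nrxn2 at least 5.66-fold, with no UMI on CD49b+ plates, and Cntn1 with a ratio of 55.2 (15.2 to 457). The Notch list gave 4 of 8 higher and 3 lower (median 1.32 in CPM, -0.32 per retained well). Heyl, a Notch target, had a ratio of 263 (45.6 to 10518) and the receptor gene Notch2 was higher by 3.60, while Dner, a membrane-bound ligand made by neurons, stood at 141, 139 and 141 CPM on CD49b- plates and at 19.7, 0 and 0 CPM on CD49b+ plates.

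Receptors of the signals that build the enteric nervous system divided. Ret, the GDNF receptor kinase, stood at 223, 205 and 240 CPM on CD49b- plates and had no UMI on CD49b+ plates, at least 12-fold. Its co-receptor Gfra1 went the other way, at 44.5, 62.8 and 35.6 CPM against 197, 222 and 198 CPM (log2 fold change 2.13 ± 0.317, adjusted p = 1.68e-09; per retained well 0.46, adjusted p = 0.181). Ednrb, the endothelin receptor, stood at 87.3, 83.1 and 83.1 CPM and at 897, 831 and 1020 CPM (3.43 ± 0.212). The list as a whole had 2 of 6 tested genes higher and 3 lower.

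Among TGF-beta, BMP, WNT and trophic factor genes 11 of 17 tested were higher and 4 lower (median 2.56; 9 higher and 6 lower per retained well). Cyr61, a matricellular target of YAP signalling, stood at 5.34, 0 and 7.42 CPM on CD49b- plates and at 2398, 1349 and 2449 CPM on CD49b+ plates (log2 fold change 8.81 ± 0.317). Sfrp1, a secreted WNT antagonist, stood at 0, 0 and 2.97 CPM and at 242, 191 and 233 CPM, a ratio of 203 with a counting interval of 54.7 to 1694.

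**Figure D4:**
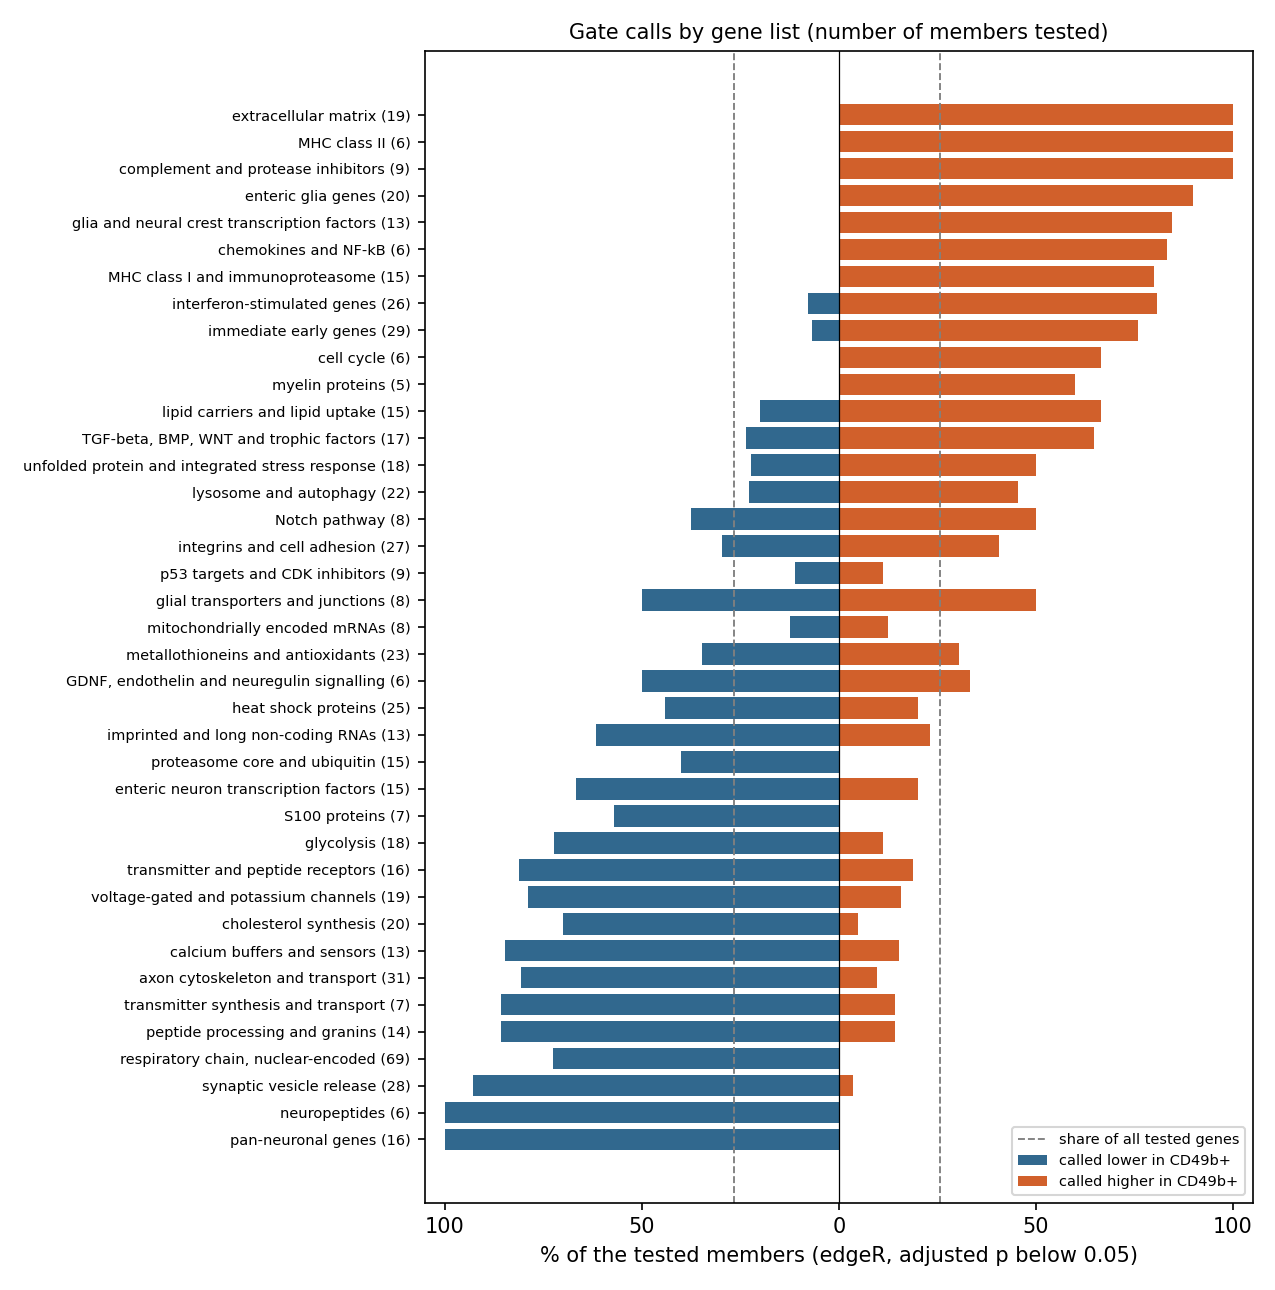
For each gene list with at least 5 tested members (number in brackets), the percentage of tested members called higher (orange, to the right) and lower (blue, to the left) in CD49b+ cells; dashed lines mark the shares over all tested genes, 25.6% and 26.5%. Extracellular matrix, MHC class II and complement lists are called higher in full, and pan-neuronal genes and neuropeptides lower in full.

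Genes of antigen presentation were higher in CD49b+ cells of these unirradiated mice. Of 15 tested MHC class I and immunoproteasome genes 12 were higher and none lower (median 2.38; 8 higher and 4 lower per retained well). B2m, the invariant light chain of class I, stood at 269, 260 and 396 CPM on CD49b- plates and at 6767, 6620 and 7201 CPM on CD49b+ plates (log2 fold change 4.50 ± 0.217, adjusted p = 9.41e-50). The heavy chain gene H2-K1, named after its values were seen, stood at 132, 96.7 and 153 CPM and at 1729, 1620 and 2361 CPM (3.90 ± 0.207), with 22.8% of its 31-base words shared with other genes. H2-Q7, H2-Q6 and H2-Q4, which resemble each other closely, were also higher.

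All 6 tested MHC class II genes were higher, in CPM and per retained well (median 8.06, or 6.59 with absent genes at their bound). Cd74, the invariant chain that guides class II molecules, stood at 1.78, 0 and 0 CPM on CD49b- plates and at 780, 388 and 647 CPM on CD49b+ plates, a ratio of 1099 with a counting interval of 196 to 43559. H2-Aa had no UMI on CD49b- plates and stood at 275, 129 and 239 CPM on CD49b+ plates, at least 43.2-fold. H2-Ab1 stood at 3.56, 0 and 7.42 CPM and at 1133, 622 and 1009 CPM (log2 fold change 7.81 ± 0.328). The pool 2 plate was the lowest of the CD49b+ plates for all 3 genes.

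Class II transcripts were found in a part of the CD49b+ wells. Cd74 UMIs were in 33.2% ± 7.77 of thinned CD49b+ wells and no thinned CD49b- well (0 of 262 allows up to 1.15% for counting error), and in 47.1% and 0.358% of unthinned wells. H2-Aa UMIs were in 16.8% ± 4.07 of thinned and 28.5% of unthinned CD49b+ wells. All CD49b+ wells held more glia than neuron marker UMIs, and 6 of the 7 macrophage markers had no UMI on these plates. Which cells the class II transcripts came from was not tested.

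Interferon-stimulated genes were higher in 21 of 26 tested cases and lower in 2 (median 3.13; 15 higher and 6 lower per retained well). Isg15, a ubiquitin-like modifier, stood at 1.78, 0 and 4.45 CPM on CD49b- plates and at 236, 148 and 274 CPM on CD49b+ plates (log2 fold change 6.49 ± 0.509, adjusted p = 3.18e-26). Ifit3, an antiviral RNA-binding protein whose sequence is 61.8% shared, stood at 0, 3.39 and 7.42 CPM and at 275, 92.4 and 414 CPM (6.01 ± 0.468). The lower members were Ly6e, a membrane-anchored surface protein, at 768, 699 and 522 CPM against 39.3, 12.3 and 11.7 CPM (-4.99 ± 0.329), and Ifitm2 (-2.85; 55.5% shared sequence).

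Promoters of 3 of the higher immune genes are printed because they hold the core of the interferon-stimulated response element, GAAA repeated after a gap of 2 bases (GAAANNGAAA), to which interferon regulatory factors and STAT complexes are known to bind. Searched as before, the core stood in 13 of 20 interferon-stimulated genes and 3 of 15 MHC class I genes with a promoter entry. The 13 include Ifitm2, which was lower in CD49b+ cells. Over wider sets it stood in 5.47% of the higher genes, 3.97% of the lower genes, 3.97% of all tested genes and 3.99% of all promoters. The 150 bases before the start follow for Isg15 (minus strand, chr4:156200819-156200968), Gbp2 (plus strand, chr3:142620513-142620662) and B2m (plus strand, chr2:122147537-122147686) of GRCm38.p6, 5′ to 3′ along each gene, with the core in capitals. In Gbp2 it reads on the opposite strand, and in Isg15 overlapping copies form 1 longer run.
Isg15: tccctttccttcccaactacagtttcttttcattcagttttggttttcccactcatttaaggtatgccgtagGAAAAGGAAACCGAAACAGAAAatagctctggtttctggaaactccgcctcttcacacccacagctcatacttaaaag
Gbp2: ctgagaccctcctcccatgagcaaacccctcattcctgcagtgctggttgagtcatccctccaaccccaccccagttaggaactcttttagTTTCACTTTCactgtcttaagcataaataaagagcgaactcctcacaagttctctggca
B2m: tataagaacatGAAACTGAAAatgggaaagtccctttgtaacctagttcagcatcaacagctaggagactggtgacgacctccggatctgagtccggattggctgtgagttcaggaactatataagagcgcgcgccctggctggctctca
Gbp2, an interferon-induced GTPase picked here for its promoter, stood at 0, 0 and 11.9 CPM on CD49b- plates and at 170, 73.9 and 111 CPM on CD49b+ plates (log2 fold change 4.77 ± 0.587, adjusted p = 5.35e-13). The core is a run of letters that many promoters hold, and no binding was measured.

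Chemokine and NF-kB genes were higher in 5 of 6 tested cases and lower in none (median 4.49), and 24 further members were too sparse to be tested. Without pool 2, 10 were higher. The filter on low counts was then applied anew and more genes were tested (7363 against 7051). The 2 counts therefore do not cover the same members. Cxcl10, a chemokine that draws T cells, had no UMI on CD49b- plates and stood at 262, 73.9 and 338 CPM on CD49b+ plates, at least 45.3-fold, in 19.2% of unthinned CD49b+ wells. Nfkbia, the inhibitor that NF-kB itself induces, stood at 23.2, 45.8 and 46.0 CPM and at 1146, 437 and 1685 CPM (log2 fold change 4.71 ± 0.248). Both genes were lowest in pool 2 and highest in pool 3 among CD49b+ plates.

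All 9 tested complement and protease inhibitor genes were higher, in CPM and per retained well (median 4.24). C4b, a complement protein of which C4a is a near copy (48.3% shared sequence), stood at 0, 0 and 23.7 CPM on CD49b- plates and at 328, 382 and 262 CPM on CD49b+ plates (log2 fold change 5.26 ± 0.395). Without the mixed wells, which held 93.8% of the pool 3 CD49b- UMIs, its log2 fold change was 8.51. Serpinf1, pigment epithelium-derived factor, was higher by 5.50.

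Immediate early genes, which tissue dissociation is known to induce, were higher in 22 of 29 tested cases and lower in 2 (median 2.07; 14 higher and 8 lower per retained well). Fos, named after its values were seen, stood at 1183, 1306 and 1436 CPM on CD49b- plates and at 7946, 5395 and 5918 CPM on CD49b+ plates (log2 fold change 2.28 ± 0.197). It was detected in 67.9% ± 3.11 of thinned CD49b- wells and 98.1% ± 2.19 of thinned CD49b+ wells, so that both gates carried it widely. Cebpd, an inflammation-responsive factor, stood at 10.7, 0 and 26.7 CPM and at 2719, 1478 and 2793 CPM (7.53 ± 0.283), and Socs3, a feedback inhibitor of cytokine signalling, was higher by 4.74. The part of dissociation in these differences was not tested.

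The exceptions were Arc and Dusp1. Arc, an activity-regulated gene of neurons, stood at 85.5, 107 and 120 CPM on CD49b- plates and at 6.55, 0 and 0 CPM on CD49b+ plates, a ratio of 51.2 with a counting interval of 9.08 to 2032. Dusp1, a phosphatase that ends MAP kinase signals, stood at 1213, 1182 and 1006 CPM and at 649, 622 and 595 CPM (log2 fold change -0.86 ± 0.188, adjusted p = 3.36e-05). The inducible genes Egr1 and Jun, named after their values were seen, were higher by 1.87 and 2.63. Per retained well Egr1 did not pass (0.20, adjusted p = 0.316).

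Of 25 tested heat shock genes 5 were higher and 11 lower (median -0.64), where 25.6% and 26.5% of all tested genes were. The share that was higher is not above that background. Hspa1a, an inducible member, was among the higher ones. It stood at 32.1, 27.1 and 26.7 CPM on CD49b- plates and at 557, 240 and 449 CPM on CD49b+ plates (log2 fold change 3.81 ± 0.283). Of its sequence 65.4% is shared with other genes, and Hspa1b is a near copy. Dnajb1, an inducible co-chaperone, stood at 116, 146 and 111 CPM and at 1919, 893 and 2851 CPM (3.81 ± 0.22). Hsp90aa1, named after its values were seen, was lower, at 652, 804 and 727 CPM against 170, 172 and 233 CPM (-1.92 ± 0.218), and Dnajc6, a neuronal co-chaperone that uncoats clathrin vesicles, was at least 2.40-fold lower.

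Of 18 tested genes of the unfolded protein and integrated stress responses 9 were higher and 4 lower (median 0.57 in CPM, -1.10 per retained well). The share that was lower is near the 26.5% over all tested genes. Asns, asparagine synthetase, stood at 228, 197 and 217 CPM on CD49b- plates and at 0, 18.5 and 0 CPM on CD49b+ plates, a ratio of 34.7 (11.8 to 169). Psat1, an enzyme of serine synthesis, went the other way (log2 fold change 3.51), as did the endoplasmic reticulum foldase Pdia4 (2.59).

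Of 23 tested metallothionein and antioxidant genes 7 were higher and 8 lower (median -0.13), shares and a median near those over all tested genes (25.6%, 26.5% and -0.11), so the count says nothing particular about this list. Mt1 and Mt2, metallothioneins that bind zinc and copper, were higher in CD49b+ cells: Mt1 stood at 185, 180 and 200 CPM on CD49b- plates and at 5522, 3350 and 3994 CPM on CD49b+ plates (log2 fold change 4.48 ± 0.213), and Mt2 was higher by 5.61. Gpx3, the secreted glutathione peroxidase, stood at 1069, 729 and 1046 CPM and at 0, 12.3 and 5.83 CPM, a ratio of 154 (52.7 to 748). Gsta4, a glutathione transferase for lipid peroxidation products, was higher by 6.32.

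Genes of energy metabolism were mostly lower in CD49b+ cells. Glycolysis genes were lower in 13 of 18 tested cases and higher in 2 (median -1.62). Eno1, enolase, stood at 1648, 1844 and 1784 CPM on CD49b- plates and at 177, 142 and 169 CPM on CD49b+ plates (log2 fold change -3.43 ± 0.224; 28.5% shared sequence). Pfkp, a phosphofructokinase, had a ratio of 69.3 (19.1 to 574) in the same direction. Hk2, an inducible hexokinase, went the other way, at 0, 0 and 1.48 CPM against 39.3, 30.8 and 40.8 CPM, a ratio of 67.5 (10.7 to 2813).

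The lactate dehydrogenase subunits differed in direction. Ldha, which favours lactate production and was named after its values were seen, stood at 955, 1225 and 1166 CPM on CD49b- plates and at 118, 129 and 122 CPM on CD49b+ plates (log2 fold change -3.17 ± 0.233). Ldhb, which favours pyruvate, stood at 376, 327 and 369 CPM and at 1048, 893 and 1178 CPM (1.54 ± 0.188, adjusted p = 4.06e-13), although per retained well its log2 fold change was -0.14. Both share sequence with copies elsewhere (19.6% and 33.0%).

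Nuclear-encoded respiratory chain genes were lower in 50 of 69 tested cases and higher in none, with a small median of -0.82. Cox5a, a cytochrome oxidase subunit, stood at 531, 645 and 663 CPM on CD49b- plates and at 242, 142 and 187 CPM on CD49b+ plates (log2 fold change -1.69 ± 0.22). Cox8b, a subunit isoform best known from muscle and brown fat, stood at 283, 443 and 234 CPM and had no UMI on CD49b+ plates, at least 17.3-fold. Mitochondrially encoded messages gave 1 of 8 higher and 1 lower (median 0.04 in CPM). Cholesterol synthesis genes were lower in 14 of 20 tested cases and higher in 1 (median -1.24): Fdft1, squalene synthase, was lower (log2 fold change -2.87), and the higher gene was Srebf1, a regulator of lipid synthesis (2.73). Without pool 2, and in DESeq2, 9 cholesterol genes were lower.

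Creatine genes differed by step. Gatm, which makes the creatine precursor, stood at 7.12, 11.9 and 14.8 CPM on CD49b- plates and at 229, 203 and 181 CPM on CD49b+ plates (log2 fold change 4.12 ± 0.398). The mitochondrial creatine kinase gene Ckmt1 was lower (-2.59 ± 0.484), and for the cytosolic Ckb the gates overlapped (-0.10, adjusted p = 0.678; per retained well -1.77). Lysosome and autophagy genes were higher in 10 of 22 tested cases and lower in 5 (median 0.73 in CPM, -0.94 per retained well). Their lower share is near the 26.5% over all tested genes. Proteasome core genes were lower in 6 of 15 and higher in none (median -0.36).

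Cell cycle genes were mostly too sparse to be tested: 6 of 28 were, of which 4 were higher and none lower (median 0.83 in CPM, -0.84 per retained well). Without pool 1 the higher ones numbered 2. Ccnd2, a G1 cyclin, stood at 21.4, 11.9 and 32.6 CPM on CD49b- plates and at 681, 517 and 717 CPM on CD49b+ plates (log2 fold change 4.85 ± 0.265). Of the imprinted and long non-coding RNAs 8 of 13 were lower and 3 higher (median -2.23). Meg3 stood at 2054, 1790 and 1565 CPM and at 39.3, 49.3 and 40.8 CPM (-5.36 ± 0.276), and Rian of the same chromosome 12 cluster had a ratio of 25.7 (8.70 to 125).

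Some abundant genes were close in both gates. For 984 of the 7051 tested genes the 95% interval of the log2 fold change lay within -1 and 1. Malat1, a nuclear long non-coding RNA, stood at 33549, 31628 and 22016 CPM on CD49b- plates and at 34463, 37688 and 28524 CPM on CD49b+ plates (log2 fold change 0.22, adjusted p = 0.403). Cd9, a tetraspanin, stood at 1582, 1842 and 1759 CPM and at 1893, 1878 and 1691 CPM (0.08, 95% interval -0.28 to 0.43). Tmsb4x, an actin-binding peptide gene, differed by 0.20 (adjusted p = 0.391). Per retained well all 3 were lower in CD49b+ cells, at -1.45, -1.60 and -1.48, so that closeness holds for shares of RNA only. Among 79 ribosomal protein genes 12 were higher and 11 lower (median -0.06), shares below the 25.6% and 26.5% over all tested genes.

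Lgr5, known as a marker of intestinal stem cells and named here after its values were seen, was detected in both gates, at 403, 307 and 357 CPM on CD49b- plates and 452, 523 and 391 CPM on CD49b+ plates, which overlapped (log2 fold change 0.36, adjusted p = 0.121). Per retained well Lgr5 was lower in CD49b+ cells (-1.31, adjusted p = 2.44e-08). Lgr5 UMIs were in 27.3% ± 8.47 and 31.6% ± 6.64 of thinned wells (89.3% and 64.1% unthinned).

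The higher and lower genes also differed in kind. Protein-coding genes made up 92.4% of the lower genes with an annotation match and 64.0% of the higher ones, against 85.6% of the genes that did not pass. Of 1036 tested processed pseudogenes, copies of mRNAs that lie elsewhere in the genome, 527 were higher in CPM and 100 lower (median 0.91), but per retained well 24 were higher and 505 lower (median -0.76). They took 9.20% to 9.82% of the UMIs on CD49b- plates and 12.1% to 15.5% on CD49b+ plates. Protein-coding genes took 80.2% to 81.3% and 72.9% to 76.9%. Reads of a processed pseudogene and of its parent mRNA may be assigned to either, so that these models are uncertain one by one.

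Smooth muscle genes were among the small lists for other cells. Myl9, a myosin light chain, stood at 1.78, 17.0 and 1.48 CPM on CD49b- plates and at 406, 135 and 134 CPM on CD49b+ plates (log2 fold change 4.93), and Acta2, smooth muscle actin, at 0, 0 and 7.42 CPM and at 85.2, 43.1 and 29.2 CPM (4.10). Synpo2 was lower (-1.96), but not without pool 3 (-1.79, adjusted p = 0.0666). Of the 6 smooth muscle markers Myh11 alone had no UMI on CD49b+ plates, where the 6 together had 43 UMIs in 37 wells. Des, Cnn1 and Tagln had none on CD49b- plates, where the 6 together had 12 UMIs in 11 wells.

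The pools were compared with each other across both gates. The test of the pool term called 32 of 7051 genes (0.454%) in edgeR, 297 had an unadjusted p below 0.05, and a likelihood ratio test in DESeq2 called none. Pools also differ in age at tamoxifen (9 weeks in pool 2) and in plate, and these cannot be told apart. The 2 neuropeptide genes among the leading ones were read from CD49b- cells. Vip, vasoactive intestinal peptide, stood at 317 CPM in pool 1 and 1230 and 1151 CPM in pools 2 and 3, and Cartpt at 778, 1990 and 2963 CPM. Scgn, a calcium sensor, ran the other way, at 280, 28.8 and 78.6 CPM.

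Other pool genes moved in both gates. The mitochondrial tRNA gene mt-Tq stood at 2458, 1242 and 940 CPM on CD49b- plates and at 1828, 567 and 834 CPM on CD49b+ plates, highest in pool 1 of either gate. Gm14150 was lowest in pool 1 of both, at 255, 758 and 718 CPM and at 197, 517 and 461 CPM. Slc25a51, the mitochondrial NAD carrier, stood at 606, 312 and 203 CPM and at 295, 55.4 and 75.8 CPM.

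Measured levels spread more widely over the CD49b+ plates. Counting error, which is larger where fewer UMIs are counted, was not separated from variation between pools. Among genes with a mean of at least 200 CPM in a gate, the median coefficient of variation over its 3 plates was 9.48% in CD49b- cells (1040 genes) and 18.5% in CD49b+ cells (963 genes), where fewer UMIs were counted. The most variable CD49b+ genes were Lrp4, Maff, Iqcb1, Ifrd1 and Vps8. Lrp4, a receptor-related protein, stood at 308, 517 and 23.3 CPM there, so its call (log2 fold change 2.14; 0.44 and not passed per retained well) came with overlapping gates. Maff, an inducible transcription factor, stood at 144, 92.4 and 385 CPM, and Ifrd1 at 518, 142 and 198 CPM. The cell cycle inhibitor gene Cdkn1a, a p53 target, stood at 334, 86.2 and 75.8 CPM and was highest in pool 1 in CD49b- cells as well, at 32.1, 10.2 and 8.90 CPM.

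**Figure D5:**
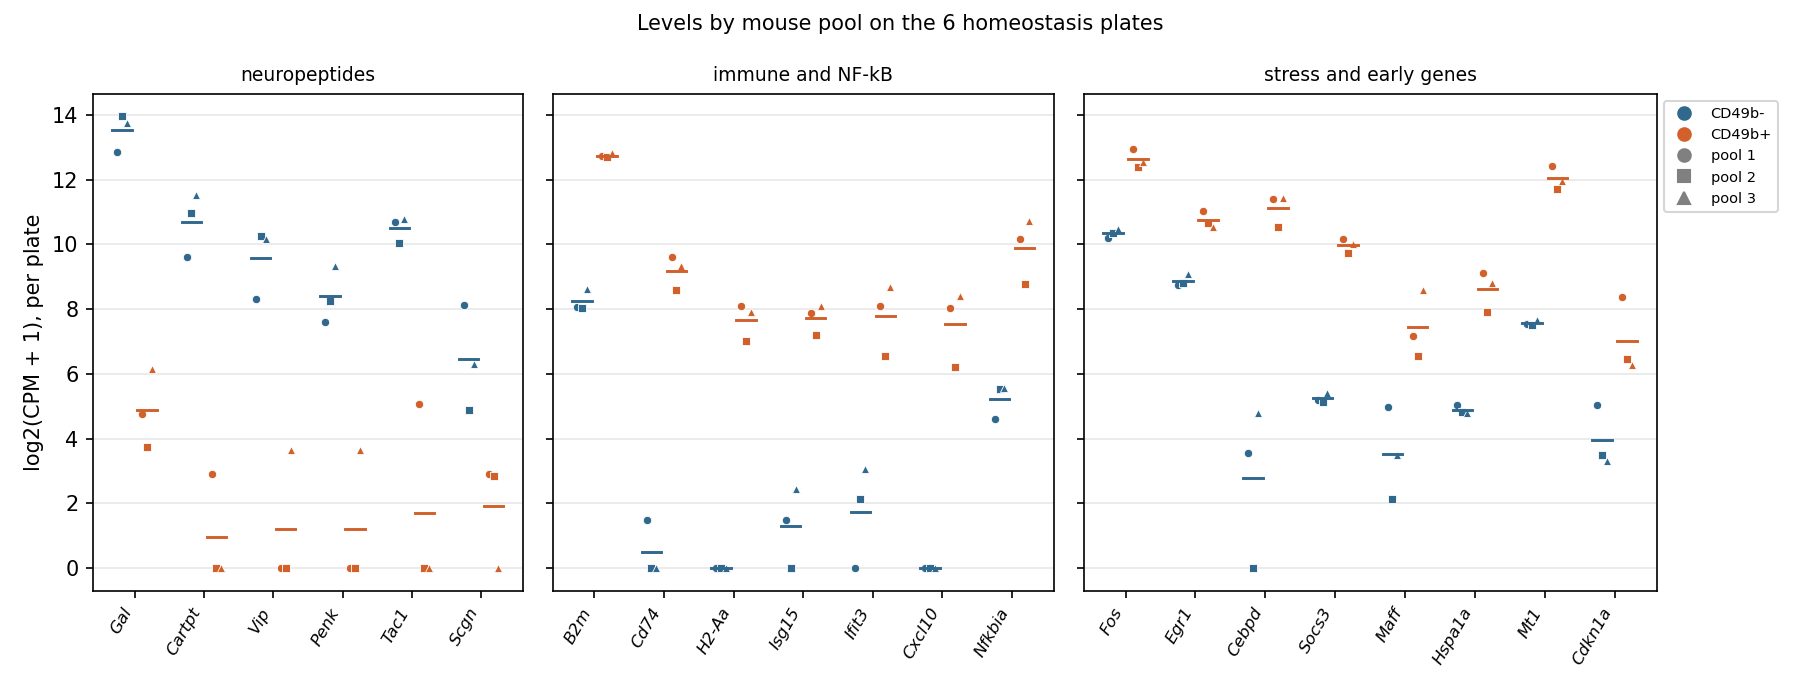
Levels of 21 genes as log2(CPM + 1) on each of the 6 plates (y axis), with marker shapes for the pools, blue for CD49b- and orange for CD49b+; bars are means of 3 plates. Vip and Scgn differ between pools among CD49b- plates, while Ifit3, Cxcl10 and Nfkbia are lowest in pool 2 among CD49b+ plates.

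Whether the gate difference in homeostasis differed from that after 10.5 Gy of irradiation was tested as an interaction on all 12 plates. No gene of 8555 passed in edgeR (0%), 542 had an unadjusted p below 0.05, and 1 gene passed without pools as blocks. The smallest p belonged to Resp18 (adjusted p = 0.134), named after its values were seen. On the scale of all 12 plates it stood at 0, 5.55 and 0 CPM on homeostasis CD49b+ plates. Irradiated CD49b+ plates had 1133, 1238 and 0 CPM, and the 2 groups overlapped. In the same order the deepest wells of the irradiated plates held 24748, 13170 and 3851 UMIs, against plate medians of 2329, 2592 and 2486.5. Whether single deep wells carried the Resp18 UMIs was not tested. A missing call does not show that the gate differences were alike.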

How the data were processed

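The deposited table held raw UMI counts per gene model and well, which the authors made from their reads. The submitters' processing notes list the builds GRCh38 and GRCm38, the counter featureCounts 1.5.3 and the aligner STAR 2.5.3a. How UMIs were collapsed is not given in the sources used here. The wells of 3 CD49b- and 3 CD49b+ homeostasis plates were filtered as stated in the report and summed per plate.

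Sums were fitted with edgeR 4.0.16 in R 4.3.3 (TMM, filterByExpr by gate, pool as block, quasi-likelihood F test, Benjamini-Hochberg adjustment over all 7051 tested genes, threshold 0.05); all adjusted p-values come from this fit unless DESeq2 1.42.0 is named. The scripts were tested on simulated data. The labels give both plates of a pool the same 2 mice, which is why pool was a block; residuals of same-pool plates correlated at 0.102, 0.0513 and 0.0611 across genes, and those of other pairs at 0.0125 at most. Levels are TMM-normalised CPM. Where a gate had no UMI, folds are lower bounds against 3 counts per plate (4.96 CPM on CD49b- and 18.5 CPM on CD49b+ plates); with 1 to 3 UMIs they are ratios with an exact 95% counting interval. Both cover counting error only. Sequence sharing was counted in 31-base words of GENCODE vM21 transcripts (GRCm38), of which 6879 tested models had 1 match.

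The members and gene lists were chosen with earlier results of these data known. Genes named are the sort genes, the largest changes of each direction, the leading and opposing members of each list, the abundant genes closest between gates, the leading pool genes and the most variable genes; others are marked as named after their values were seen, and a few genes are not reported here. Shares of wells were compared after thinning each well to 1000 UMIs (seed 1). Plates of 1 gate come from separate pools of mice. Alternatives were normalisation, filters on counts and wells, thinning, DESeq2, no block, all 12 plates and each pool left out; scaling per retained well and leaving out mixed wells were added after seeing the data.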

Additional observations from a re-analysis of the deposited data

How the results depend on the processing

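Called genes numbered 3203 to 3560 with 1 pool left out (higher 1552 to 1716, lower 1636 to 1844), and without the replicate block 3761. Wells thinned to 1000 UMIs gave 988 called genes (502 higher, 486 lower) of fewer tested, the 2-fold test 1939 and scaling per retained well 5696 (505 higher, 5191 lower). Lower genes numbered 1227 in DESeq2 and 2904 without a filter on low counts. For pools, 49 genes were called without the filter and 0 in DESeq2. For gate by treatment, 1 gene was called without the replicate block and none with each homeostasis pool left out. Without the block the calls of mt-Tq, Gm14150 and Rn18s-rs5 did not hold, and no other named gene's call changed. Per retained well these log2 fold changes turned negative: Syngr1 -0.30, Scg3 -1.10, Marcks -0.33, Calb1 -0.11, Calm3 -1.05, Hand2 -0.31, Cdk4 -0.54, Ccnd3 -0.74, Stmn1 -0.93, Ldhb -0.14, mt-Nd2 -1.23, Gamt -0.45, Nnat -0.52, Malat1 -1.45, Tmsb4x -1.48, Ctsb -1.28, Cd9 -1.60, Gadd45g -1.38, Iqcb1 -0.12, Lgr5 -1.31 and Tbx3 -0.64. Genes near 0 also turned without the filter (Malat1 -0.12, Tmsb4x -0.15, Cd9 -0.27, Gadd45g -0.054), with all 12 plates (Cd9 -0.033) and with thinning (Gm37421 0.23, Ckb 0.24). With each pool left out Gm37421 ranged from -0.19 to 0.0064, Cd9 from -0.077 to 0.090, Ngfr from -0.75 to 0.37 and Gadd45g from -0.047 to 0.53. The per-well offset itself lowers the CD49b+ side; the cause of the other shifts was not tested. The differences between gates in median UMIs and genes per well kept their direction in all alternatives run. The lower depth of CD49b+ plates limits what can be seen of rare transcripts there.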
